A study of Mus musculus with 2 samples.

Results

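A set of 6 genes described on the apical branch of the vomeronasal lineage, *Pcolce2*, *Lmo2*, *Car2*, *Nsg1*, *Dner* and *Gfy*, were followed from neuronal precursors to mature neurons and across the non-neuronal cells of the mouse vomeronasal organ (VNO). They are 6 of the 32285 genes in the count table, and all 6 were among the 21823 genes seen in at least 3 barcodes. The genes had been picked for their levels in apical neurons of these same cells, so their differences between apical and basal neurons are given as values, with no test. Of the 6, *Pcolce2*, *Car2*, *Nsg1* and *Dner*, were higher in apical neurons at one stage or both. *Lmo2* was higher in immature apical neurons but was also present in immature basal neurons, and the data go against the name for *Gfy*, which was at nearly the same level in both immature branches.

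Whole VNO of wild-type C57BL/6J males at P60 was dissociated with papain and collagenase, cryopreserved and captured in 2 droplet-based libraries, with 10000 cells targeted in each. The labels name 5 vomeronasal organs. No source used here says how these were divided between the libraries, so p-values measure the spread between 2 libraries. No gene was altered and no treatment was given. The libraries held 12814 and 11270 barcodes and 108005626 and 95442231 unique molecular identifiers (UMIs, each marking 1 captured mRNA molecule). After the quality filter 5694 and 4898 cells were left, with medians of 6668 and 6650 UMIs, and 33 barcode sequences occurred in both libraries, 3 of them among the cells left.

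The VNO is the nasal organ that detects pheromones and other social odors. Its apical vomeronasal sensory neurons (VSNs) express receptors of the V1R family, the G protein subunit Gnai2 and the transcription factor Meis2, and its basal VSNs express V2R receptors, Gnao1 and Tfap2e. Both arise throughout life from a common pool of *Neurog1* and *Neurod1* precursors, pass through an immature stage with the growth cone protein Gap43 and end with olfactory marker protein, Omp.

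The genes lie on different chromosomes and code for proteins of different cell compartments. *Pcolce2* (ENSMUSG00000015354, chr9:95637601-95698096, plus strand in mm10) encodes a secreted enhancer of the protease that trims procollagen. *Lmo2* (ENSMUSG00000032698, chr2:103957986-103981878, plus strand) encodes a LIM-only transcription cofactor best known from blood and endothelium. *Car2* (ENSMUSG00000027562, chr3:14886273-14900770, plus strand) encodes the cytosolic carbonic anhydrase 2, which interconverts carbon dioxide and bicarbonate. *Nsg1* (ENSMUSG00000029126, chr5:38137192-38159907, minus strand) encodes a neuronal endosome protein that sorts receptors. *Dner* (ENSMUSG00000036766, chr1:84369839-84696221, minus strand) encodes a neuronal transmembrane protein with Delta-like EGF repeats that can act on Notch. *Gfy* (ENSMUSG00000095276, chr7:45176349-45179569, minus strand) encodes a Golgi protein of olfactory sensory neurons.

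Upstream sequence was at hand for *Pcolce2*, *Dner* and *Gfy*, from RefSeq on GRCm38.p6. It is shown because these 3 genes had different courses: *Pcolce2* was the most restricted to immature apical neurons, *Dner* rose in the apical branch, and *Gfy* rose in both. Each line runs 5′ to 3′ on the strand of the gene up to the last base before the first of the RefSeq and GENCODE starts, from chr9:95637378-95637600 for *Pcolce2*, chr1:84696222-84696471 for *Dner* and chr7:45179598-45179847 for *Gfy*. Capitals mark matches to the E-box CANNTG, bound by Neurog1 and Neurod1 among many factors, the Meis core TGACAG, the AP-2 palindrome GCCNNNGGC or the palindrome of the EBF factors, read on both strands.
Pcolce2: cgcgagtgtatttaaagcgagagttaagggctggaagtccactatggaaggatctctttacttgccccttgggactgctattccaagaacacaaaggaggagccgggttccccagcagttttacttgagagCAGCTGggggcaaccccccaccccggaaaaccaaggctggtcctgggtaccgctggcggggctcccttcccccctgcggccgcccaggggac
Dner: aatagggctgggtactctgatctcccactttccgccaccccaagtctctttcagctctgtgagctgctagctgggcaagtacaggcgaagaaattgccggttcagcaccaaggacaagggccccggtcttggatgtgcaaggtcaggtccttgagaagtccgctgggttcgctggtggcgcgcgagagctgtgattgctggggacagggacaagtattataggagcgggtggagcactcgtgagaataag
Gfy: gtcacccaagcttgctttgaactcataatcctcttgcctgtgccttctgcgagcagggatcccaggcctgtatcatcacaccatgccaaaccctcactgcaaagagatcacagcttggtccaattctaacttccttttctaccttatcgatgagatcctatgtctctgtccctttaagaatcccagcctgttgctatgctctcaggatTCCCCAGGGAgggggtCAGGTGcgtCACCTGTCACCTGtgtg

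Over the 250 bases before the RefSeq start, from which positions are counted, *Gfy* held 3 E-boxes, 1 Meis core and 1 EBF palindrome, all within the last 42 bases, and the Meis core overlapped both E-boxes nearest to the start. *Pcolce2* held 1 E-box, 119 bases before that start, and *Dner* held none of the 4 motifs. Among 32851 promoters of this length, 66.2% held an E-box, 15.9% the Meis core, 13.7% the AP-2 palindrome and 0.779% the EBF palindrome. For *Gfy* the RefSeq start lies upstream of the GENCODE start given above, and for *Pcolce2* downstream. These are matches of letters and say nothing about binding.

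Neuronal cells were the 1503 cells of clusters named by markers of precursors, immature neurons or mature VSNs. Within them a cell was a precursor with at least 2 UMIs of *Neurog1* and *Neurod1* and none of *Meis2* or *Tfap2e*. Other cells were immature where *Gap43* exceeded *Omp* and mature otherwise, with at least 2 UMIs of the gene. They were apical where *Meis2* and *Gnai2* together had at least 2 UMIs and at least 2 times the UMIs of *Tfap2e* and *Gnao1*, and basal in the reverse case. This gave 79 precursors, 312 immature apical, 117 immature basal, 568 mature apical and 89 mature basal cells, and each group held cells of both libraries. The median cell held 9085.5 UMIs in the immature apical group, 8989 in the immature basal, 13572 in the mature apical and 17236 in the mature basal group. The receptors, which the gate did not use, followed the names: all V1R genes together stood at 12842 and 13514 counts per 1000000 UMIs (CPM) in mature apical neurons of libraries 1 and 2, against 29.7 and 20.7 CPM in mature basal neurons.

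Markers of other cell types were present in the neuronal groups at levels below those of their own clusters. The 8 endothelial markers summed to between 7.75 and 26.4 CPM, against 5420 CPM in the endothelial-like clusters. The 6 macrophage markers summed to between 14.9 and 282 CPM, against 23806 CPM in their own clusters. The 6 fibroblast markers were highest in the precursors of library 2, with 975 CPM against 6.04 CPM in those of library 1 and 28042 CPM in their own clusters. The 8 markers of non-sensory epithelium were higher and differed by branch, with 1435 and 999 CPM in immature apical, 2838 and 2346 CPM in immature basal, 226 and 286 CPM in mature apical and 1986 and 2055 CPM in mature basal neurons. Their own clusters had 12742 CPM. The 9 gland markers summed to between 651 and 2627 CPM, against 240453 CPM in their own cluster, with 1532 and 801 CPM in mature apical and 2627 and 2369 CPM in mature basal neurons. The sum of the 6 monocyte markers was also higher in basal neurons, with 133 and 148 CPM against 18.4 and 29.6 CPM in immature and 342 and 331 CPM against 91.2 and 92.2 CPM in mature neurons. This was not a trait of the list: in both mature basal sums and in immature basal neurons of library 1, 5 of the 6 had no UMI. All UMIs of the list there were of *Plac8*. The other 8 lists stayed at or below 290 CPM. The part of these markers in the differences of the 6 genes was not tested.

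*Pcolce2* was almost confined to immature apical neurons within the lineage, at a low level. It had 37.9 CPM in library 1 and 28.8 CPM in library 2 in immature apical neurons, from 100 UMIs in all. Immature basal neurons had 0 and 1.97 CPM, from 1 UMI. Mature apical neurons had 1.55 and 0.303 CPM, mature basal neurons had no UMI, and precursors had 2.01 and 0 CPM. The ratio of immature apical to basal neurons was 39.7, with a 95% counting interval from 6.96 to 1584 that shows how little 1 UMI fixes. At least 1 UMI was found in 64 of the 312 immature apical cells, 20.5%, with an exact interval from 16.2% to 25.4%. None of the 89 mature basal cells had one, which allows a share with a UMI of up to 3.37% when the limit is set at 3 cells of the group.

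*Lmo2* marked the immature stage of both branches more than the apical branch. Immature apical neurons had 162.8 and 178.2 CPM in libraries 1 and 2. Immature basal neurons had 83.3 and 100.6 CPM, a ratio of 1.87 (counting interval, 1.51 to 2.32). Mature apical neurons had 4.64 and 5.46 CPM and mature basal neurons 4.06 and 1.29 CPM. With 39 and 4 UMIs the mature ratio of 1.89 had an interval from 0.680 to 7.26, which included 1. Precursors had 6.04 and 3.77 CPM. Of immature apical cells 57.4% held a UMI of *Lmo2*, and of immature basal cells 48.7%.

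*Car2* was higher in apical than in basal neurons at both stages, as was *Dner* at a lower level. In immature apical neurons it had 288.3 and 274.1 CPM, and in immature basal neurons 12.1 and 21.7 CPM, a ratio of 17.3 (11.03 to 28.95). In mature apical neurons it had 459.8 and 442.6 CPM, and in mature basal neurons 97.3 and 73.6 CPM, a ratio of 5.31 (4.45 to 6.38). Apical neurons were above basal neurons in both libraries at each stage, and the basal level was higher in mature than in immature neurons. Precursors had 28.2 and 22.6 CPM, close to immature basal neurons.

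*Nsg1* was abundant in every neuronal group before it separated the branches. Precursors had 267.9 and 308.8 CPM, immature apical neurons 645.3 and 629.8 CPM, and immature basal neurons 392.2 and 564.2 CPM. The immature ratio was 1.65 in library 1 and 1.12 in library 2, and the counting interval of the second, 0.974 to 1.28, included 1. Mature apical neurons had 2055 and 2293 CPM, and mature basal neurons 81.1 and 98.2 CPM. The mature ratio of 24.0 (20.3 to 28.6) was the largest of any member at the mature stage among those with UMIs in both groups. All 568 mature apical cells held a UMI of *Nsg1*, against 65.2% of mature basal cells, which were deeper.

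*Dner* was low in immature cells and rose in mature apical neurons. Precursors had 26.2 and 11.3 CPM, immature apical neurons 24.3 and 27.2 CPM, and immature basal neurons 7.57 and 13.8 CPM. The immature ratio of 2.48 (1.34 to 5.02) rested on 75 and 12 UMIs. Mature apical neurons had 150.2 and 191.0 CPM, and mature basal neurons 13.5 and 20.7 CPM, a ratio of 9.74 (6.62 to 15.0). A UMI was found in 80.8% of mature apical and 23.6% of mature basal cells.

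*Gfy* differed more between stages than between branches. Immature apical neurons had 425.7 and 397.2 CPM, and immature basal neurons 445.2 and 428.1 CPM, a ratio of 0.945 with an interval from 0.851 to 1.05. Mature apical neurons had 2437 and 2097 CPM, and mature basal neurons 1858 and 1656 CPM, a ratio of 1.31 (1.26 to 1.36). Every mature cell of both branches held a UMI of *Gfy*.

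**Figure D1:**
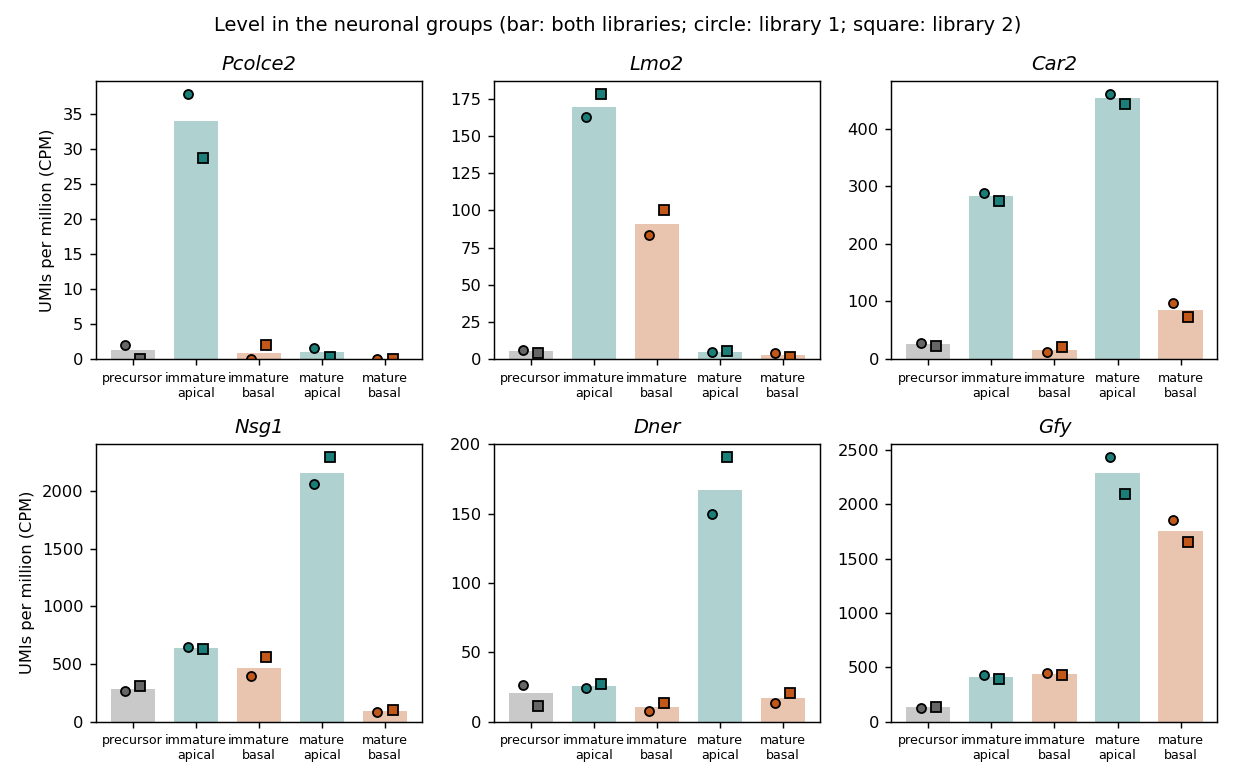
Level of each gene in CPM (vertical axis, from 0) in precursors and in immature and mature neurons of each branch, with bars for both libraries together, circles for library 1 and squares for library 2. *Pcolce2* and *Lmo2* peak in immature apical neurons, *Nsg1* and *Dner* in mature apical neurons, and *Gfy* is at 2294 and 1755 CPM in mature apical and basal neurons.

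In a fit over the 10 sums of 5 groups and 2 libraries (edgeR's quasi-likelihood test, Benjamini-Hochberg adjustment over the 14040 genes whose 10 sums together reached 10 UMIs), all 6 members passed the filter on low counts. The comparisons between stages share the immature sums with the branch contrast for which the genes were picked, and say nothing independent about the branch. The same holds for the immature apical sums set against precursors: a gene picked for its level in apical neurons is more likely to be higher there, so these p-values set the size of a change against the spread between libraries and support nothing about the set.

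Between immature and mature apical neurons, 4 members rose and 2 fell, where 32.6% of all genes tested were called, 17.4% higher and 15.2% lower in mature neurons. *Dner* rose by a log2 of 2.85 (SE 0.24, edgeR adjusted p = 2.01e-06) and *Gfy* by 2.59 (SE 0.12, edgeR adjusted p = 2.82e-08). *Nsg1* rose by 1.89 (SE 0.13, edgeR adjusted p = 5.20e-07), and *Car2* by 0.80 (SE 0.15, edgeR adjusted p = 1.14e-03), the smallest change of the 6. *Lmo2* had a log2 change of -4.94 (SE 0.23, edgeR adjusted p = 2.59e-08) and *Pcolce2* of -4.82 (SE 0.54, edgeR adjusted p = 3.37e-05). Both libraries showed each of these directions.

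Between immature and mature basal neurons, *Car2* and *Gfy* rose, *Lmo2* and *Nsg1* fell, and *Dner* and *Pcolce2* did not pass the test, where 21.7% of all genes were called, 11.1% higher and 10.6% lower in mature neurons. *Car2* rose by 2.44 (SE 0.27, edgeR adjusted p = 4.00e-05) from its low immature level, and *Gfy* by 2.08 (SE 0.13, edgeR adjusted p = 3.32e-07). *Lmo2* had a log2 change of -4.999 (SE 0.37, edgeR adjusted p = 1.43e-06) and *Nsg1* of -2.33 (SE 0.16, edgeR adjusted p = 9.47e-07). *Dner* had a log2 difference of 0.79 (SE 0.45, edgeR adjusted p = 0.251). *Pcolce2* had 1 UMI in the immature and none in the mature basal group, which allows no fold. *Nsg1* thus fell in basal neurons while it rose in apical neurons, in both libraries, and that difference between branches was not tested because the branch chose the gene.

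From precursors to immature apical neurons, 5 members rose and *Dner* did not pass the test, where 16.6% of all genes were called, 10.5% higher and 6.1% lower in immature neurons. The largest changes were those of *Lmo2*, with a log2 difference of 5.05 (SE 0.35, edgeR adjusted p = 2.42e-06), and *Pcolce2*, with 4.64 (SE 0.92, edgeR adjusted p = 4.86e-03). *Car2* rose by 3.48 (SE 0.24, edgeR adjusted p = 2.42e-06), *Gfy* by 1.68 (SE 0.15, edgeR adjusted p = 1.63e-05) and *Nsg1* by 1.22 (SE 0.15, edgeR adjusted p = 1.39e-04). *Dner* differed by 0.36 (SE 0.38, edgeR adjusted p = 0.596). Without the precursors of library 1, the sum with the single *Pcolce2* UMI, the adjusted p of *Pcolce2* was 0.0538 by edgeR, and the calls of the other members stayed.

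**Figure D2:**
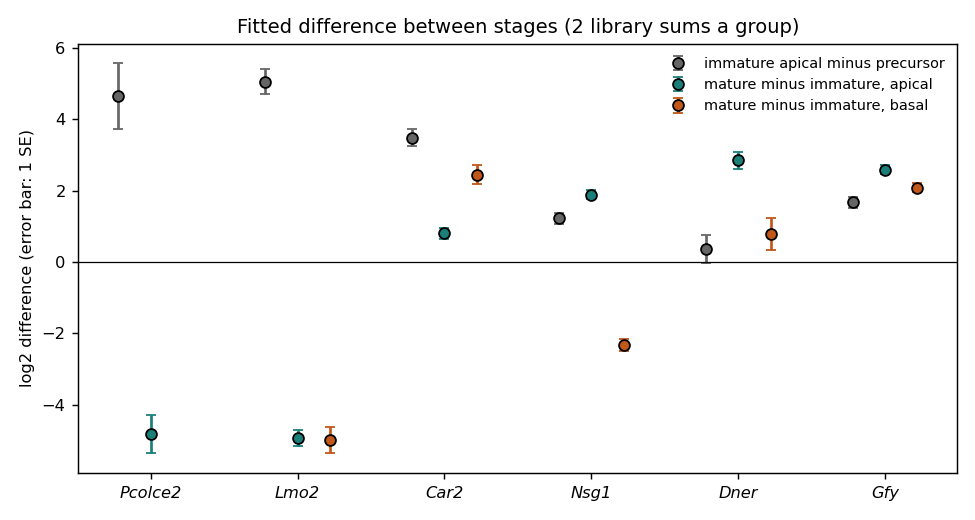
Fitted log2 difference (vertical axis, with 1 SE) of each gene from precursors to immature apical neurons (gray), and from immature to mature neurons in the apical (teal) and basal (orange) branch, from 2 library sums a group. *Nsg1* lies at 1.89 in the apical and -2.33 in the basal branch, and *Pcolce2* is left out for the basal branch, where it had 1 UMI.

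Finer steps within the branches, set after the data had been seen, showed in which part of the immature stage the levels moved. Step 1 was immature cells that still held 2 or more UMIs of *Neurog1* and *Neurod1*, step 2 those without them and without *Omp*, step 3 those with *Omp*, step 4 mature cells with *Gap43* and step 5 those without it. Basal step 1 had 3 cells and is left out, and basal step 3 had 19.

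In the apical branch *Pcolce2* stood at 1.92 CPM at step 1, 50.7 at step 2, 21.1 at step 3, and 0.50 and 1.57 at steps 4 and 5. *Lmo2* had the same shape at a higher level, with 44.2, 240.7 and 107 CPM at steps 1 to 3 and 5.50 and 4.44 CPM at steps 4 and 5. Both were transient, and both peaked before *Omp* was detected. In the basal branch *Lmo2* had 101 CPM at step 2, 62.7 at step 3 and 3.00 and 2.36 at steps 4 and 5.

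*Car2* was highest at the late steps, where *Pcolce2* and *Lmo2* were low. Its apical levels were 55.7, 299, 396, 449 and 456 CPM at steps 1 to 5, and the basal levels at steps 2 to 5 were 13.6, 23.5, 67.5 and 99.1 CPM. At step 2 the branches already stood apart in both libraries, with 291.4 and 308.6 CPM in apical and 11.1 and 16.2 CPM in basal cells.

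*Nsg1* did not stand apart at step 2, where apical cells had 499.9 and 477.6 CPM and basal cells 440.6 and 623.4 CPM in libraries 1 and 2. At step 3 apical cells had 1044 and 1155 CPM and basal cells 299.0 and 139.3 CPM, the second from 5 cells. *Dner* rose at the same point, from 13.0 CPM at apical step 2 to 57.2 at step 3, 158 at step 4 and 178 at step 5. *Gfy* rose side by side in both branches, with 277, 847, 2169 and 2425 CPM at apical steps 2 to 5 and 320, 889, 1637 and 1847 CPM at basal steps 2 to 5.

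**Figure D3:**
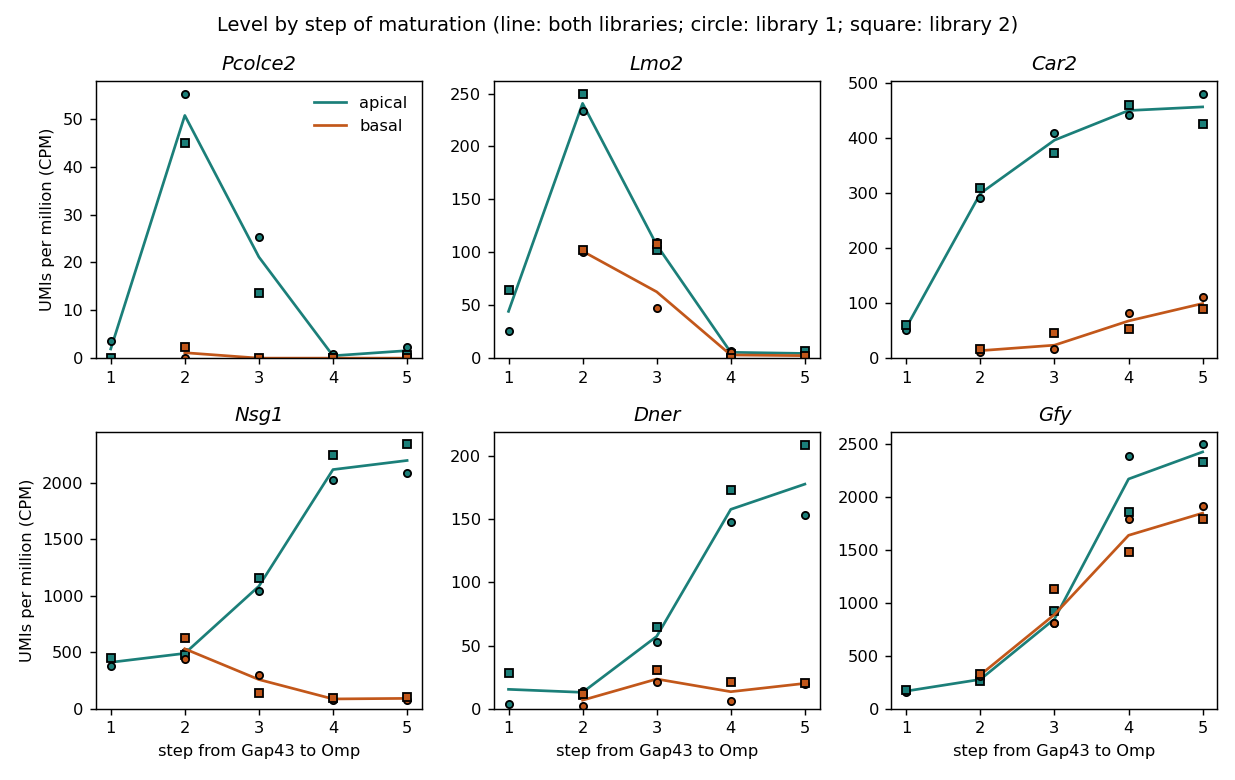
Level of each gene in CPM (vertical axis, from 0) by step from *Gap43* to *Omp* (horizontal axis) in the apical (teal) and basal (orange) branch, with lines for both libraries together, circles for library 1 and squares for library 2. *Pcolce2* and *Lmo2* peak at apical step 2, *Car2* parts the branches from step 2 and *Nsg1* from step 3, and *Gfy* rises in both.

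The members were also set beside the genes that share their pathways, which were tested in the same fit. The lists were chosen with earlier results of these cells known, so their counts describe the lists and no more. Between immature apical and basal neurons 2.91% of all genes were called, and between mature apical and basal neurons 7.62%. In the immature comparison 1.24% were higher and 1.67% lower in apical neurons, and in the mature comparison 4.09% were higher and 3.53% lower. The median log2 difference over all genes was 0.07 and 0.18 in these 2 comparisons.

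Genes long known to mark the branches gave the scale. Of 4 such apical genes, 2 were higher in immature and 3 in mature apical neurons. *Ncam2*, a cell adhesion molecule, had 75.2 and 89.5 CPM in immature apical neurons and no UMI in immature basal neurons, at least 31.6-fold higher against 3 UMIs over the group (edgeR adjusted p = 4.59e-05). *Nrp2*, a semaphorin receptor of apical axons, was higher by 1.20 in immature (SE 0.27, edgeR adjusted p = 3.45e-02) and by 4.48 in mature apical neurons (SE 0.41, edgeR adjusted p = 1.39e-05). *Nrp2* thus stood between *Dner* and *Nsg1* in its mature difference, whose fitted log2 values were 3.31 and 4.604. Of 3 basal genes, 1 was lower in immature and 2 in mature apical neurons, led by the axon guidance receptor gene *Robo2* in mature neurons, with a log2 difference of -5.18 (SE 0.33, edgeR adjusted p = 5.32e-07).

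Of 11 tested genes of the LIM-only and LIM-domain-binding complex, the partners of *Lmo2*, 1 was higher and 1 lower in immature apical than basal neurons. The LIM homeobox gene *Lhx2* was higher by 0.67 (SE 0.11, edgeR adjusted p = 4.59e-03), and *Lmo4*, a close relative of *Lmo2*, differed by -0.80 (SE 0.14, edgeR adjusted p = 8.42e-03), in the opposite direction to *Lmo2*. Of the 11, 6 fell and 2 rose from immature to mature apical neurons, with a median of -0.91 against 0 over all genes. Of all genes tested, 15.2% were called lower and 17.4% higher. *Lmo4* fell by 2.49 on the log2 scale (SE 0.15, edgeR adjusted p = 1.68e-07) and *Lhx2* by 1.65 (SE 0.11, edgeR adjusted p = 2.77e-07), both less than *Lmo2*, and *Lmo1* rose by 0.48 (SE 0.14, edgeR adjusted p = 1.83e-02). In mature apical against basal neurons 3 of the 11 were higher, *Ssbp4*, *Lhx2* and *Lmo1*, by 1.02, 0.55 and 0.68.

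None of 10 tested carbonic anhydrases and bicarbonate transporters was called between the immature branches by edgeR or DESeq2, where 3 had an unadjusted p under 0.05, at a median of 0.52, or 0.43 with 2 genes that had no UMI in 1 group at their bound. In mature neurons 1 of the 10 was called, the sodium bicarbonate cotransporter gene *Slc4a4*, with 11.7 and 12.7 CPM in apical and no UMI in basal neurons, at least 6.12-fold higher (edgeR adjusted p = 8.51e-03). *Slc4a4* stood far below *Car2* in UMIs, with 95 against 3542 in mature apical neurons. From immature to mature apical neurons 3 rose and 2 fell by edgeR, where 17.4% of all genes were called higher and 15.2% lower, and DESeq2 called 2 of the 10. The bicarbonate transporter gene *Slc4a7* fell by 1.95 (SE 0.32, edgeR adjusted p = 4.82e-04).

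Of 16 genes of neuronal endosomes and vesicles, the compartment of *Nsg1*, none was called between the immature branches by edgeR or DESeq2, with 0 at an unadjusted p under 0.05, and 2 were higher between the mature branches. These were the sorting receptor gene *Sorl1*, by 1.11 (SE 0.21, edgeR adjusted p = 4.91e-03), and *Caly*, a vesicle protein gene of the same family as *Nsg1*, by 2.83 (SE 0.75, edgeR adjusted p = 4.05e-02), and both differences were below that of *Nsg1*. *Nsg2*, its closest relative, ran the other way in the apical branch: it had 82.3 and 100.7 CPM in immature and 1.77 and 0.605 CPM in mature apical neurons, a log2 change of -5.95 (SE 0.34, edgeR adjusted p = 2.36e-07). In mature basal neurons *Nsg2* had no UMI, at least 38.0-fold lower than in immature basal neurons (edgeR adjusted p = 7.62e-06), where *Nsg1* fell too. Of the 16, 6 rose from immature to mature apical neurons and *Nsg2* alone fell, where 17.4% of all genes were called higher and 15.2% lower. Among the 6 were *Sorl1*, by 2.63, and the synaptic fusion gene *Snap25*, by 2.20 (SE 0.20, edgeR adjusted p = 4.64e-06).

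Of 20 tested Notch ligands, receptors and targets, the pathway with which *Dner* is associated, none was called between the immature branches by edgeR or DESeq2, where 3 had an unadjusted p under 0.05. In mature neurons 2 were lower in apical than basal neurons. The list median was 0.55, or -0.10 with 3 genes that had UMIs in only 1 of the groups at their bound, so its sign rests on these 3. The 2 lower genes were the Notch target genes *Hes1*, with a log2 difference of -2.37 (SE 0.53, edgeR adjusted p = 1.51e-02), and *Hey1*, with -1.63 (SE 0.41, edgeR adjusted p = 2.80e-02). From immature to mature apical neurons 7 of the 20 fell and 1 rose, with a median of -1.75 against 0 over all genes. Over all genes tested, 15.2% were called lower and 17.4% higher. *Hes6* fell by 2.19 (SE 0.21, edgeR adjusted p = 6.54e-06), and *Cntn1*, which encodes a contactin that can bind Notch, rose by 1.80 (SE 0.24, edgeR adjusted p = 1.03e-04) as *Dner* did.

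Of 13 genes of the Golgi and of olfactory receptor trafficking, 1 was higher in immature apical neurons, and 2 were higher and 2 lower in mature apical neurons. *Rtp1*, which helps olfactory receptors to the cell surface, had 83.5 and 72.7 CPM in immature apical neurons and no UMI in immature basal neurons, at least 30.7-fold higher (edgeR adjusted p = 8.88e-06). In mature neurons it had 443.2 and 499.0 CPM in apical and 4.06 and 1.29 CPM in basal neurons, a log2 difference of 7.44 (SE 0.29, edgeR adjusted p = 1.93e-08). *Rtp1* thus differed between the branches far more than *Gfy*, the member of its list. Of the 13, 6 rose in each branch from the immature to the mature stage by edgeR, where 17.4% of all genes were called higher in the apical and 11.1% in the basal branch, and none fell.

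Of 12 procollagen processing genes, the setting of *Pcolce2*, 6 had enough UMIs to be tested, and none was called between the branches or between the stages within a branch by edgeR or DESeq2, with 0 at an unadjusted p under 0.05. The collagen chaperone gene *Serpinh1*, lower in immature apical neurons than in precursors by a log2 of -2.54 (SE 0.69, edgeR adjusted p = 2.46e-02), was the 1 call of the list in the precursor comparison. It had 18.1 and 45.2 CPM in precursors of libraries 1 and 2, where the fibroblast markers had 6.04 and 975 CPM, and their part in this call was not tested. *Pcolce*, the closest relative of *Pcolce2*, had 3 UMIs in immature apical and 1 in immature basal neurons.

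Outside the lineage the members fell into those with and those without a second site. The 14 non-neuronal classes below held 7628 cells, and as clusters they are described with no test.

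*Lmo2* had a non-neuronal class above its immature apical level of 169.4 CPM. It was the 1 such member of the 6 in these classes. With a mitochondrial limit of 10%, where the cells were clustered again, there were 3, *Pcolce2*, *Lmo2* and *Car2*. Endothelial-like clusters had 231.5 and 251.6 CPM in libraries 1 and 2, with a UMI in 62.8% of cells, and macrophage-like clusters had 140.7 and 149.7 CPM. Among the endothelial-like clusters the level ran from 145.9 CPM in 365 cells to 397.9 CPM in 36 cells led by the lymphatic genes *Prox1* and *Lyve1*. Among the macrophage-like clusters it ran from 107.8 CPM in 689 cells to 204.4 CPM in 501 cells with *Mrc1* among their leading genes. Those 501 cells had 200.8 and 207.7 CPM in libraries 1 and 2, also above immature apical neurons. B cell-like (71.8 CPM), dendritic-like (71.4 CPM) and monocyte-like (58.8 CPM) clusters followed. Of all UMIs of *Lmo2* in the cells left, 77.0% were in non-neuronal clusters and 18.6% in neuronal ones.

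*Car2* was spread over epithelial classes. Ciliated-like cells had 215.2 and 188.6 CPM from 34 cells, sustentacular-like cells 108.5 and 110.8 CPM, gland-like cells 70.5 and 85.4 CPM and non-sensory epithelium-like cells 68.1 and 63.4 CPM. The last value depends on the mitochondrial limit: at 10% the 223 cells so named had 382 and 436 CPM, with a UMI in 78.0% of cells. A UMI was found in 60.6% of sustentacular-like cells at a median depth of 11264 UMIs, against 6.0% of basal cell-like cells, whose clusters had medians of 8204 and 11566 UMIs. One cluster of 77 T cell- or NK-like cells led by *Nkg7* and granzyme genes had 136.3 CPM, against 3.08 and 9.07 CPM in the other lymphoid clusters of that class.

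*Nsg1* and *Pcolce2* had their highest non-neuronal level in fibroblast-like cells. For *Nsg1* these had 212.2 and 218.2 CPM, above precursors in neither library, and 55.7% of the cells held a UMI. Of the 2 fibroblast-like clusters, the one led by *Cytl1* and *Cemip* had 371.4 CPM of *Nsg1* and 23.0 CPM of *Pcolce2* from 175 cells, and the other 123.9 and 2.11 CPM. *Pcolce2* in this class was 16.1 CPM in library 1 and 1.54 CPM in library 2, so the level rests on library 1. With a mitochondrial limit of 10% a cluster of 90 cells was named tuft- or solitary chemosensory-like, with 53.6 and 52.4 CPM of *Pcolce2* and a UMI in 38.9% of cells. At the 5% limit a cluster of 658 cells had the tuft markers *Trpm5*, *Gnat3*, *Avil* and *Pou2f3* raised. It was left unnamed because receptors of both families were among its leading genes, and it had 3.44 CPM of *Pcolce2*.

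*Dner* and *Gfy* had no second site in these classes. *Dner* did not exceed 6.66 CPM in any, and *Gfy* did not exceed 33.9 CPM, where neurons had up to 167 and 2294 CPM. Non-neuronal clusters held 3.89% of the *Dner* and 2.39% of the *Gfy* UMIs. A *Gfy* UMI was found in 5.1% of basal cell-like and 13.8% of sustentacular-like cells, a low share spread over all classes. Unnamed clusters, 1461 cells in 4 clusters that mixed receptors of both families or lacked markers, held 38.4% of the *Dner* and 31.7% of the *Gfy* UMIs, and their cells enter no group. They held 30.9% of the *Nsg1*, 29.4% of the *Car2*, 4.40% of the *Lmo2* and 4.02% of the *Pcolce2* UMIs. A cluster of 305 of these cells, at a median of 27734 UMIs, had *Omp*, *Snap25* and *Syt1* raised, and the levels of mature neurons leave it out.

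**Figure D4:**
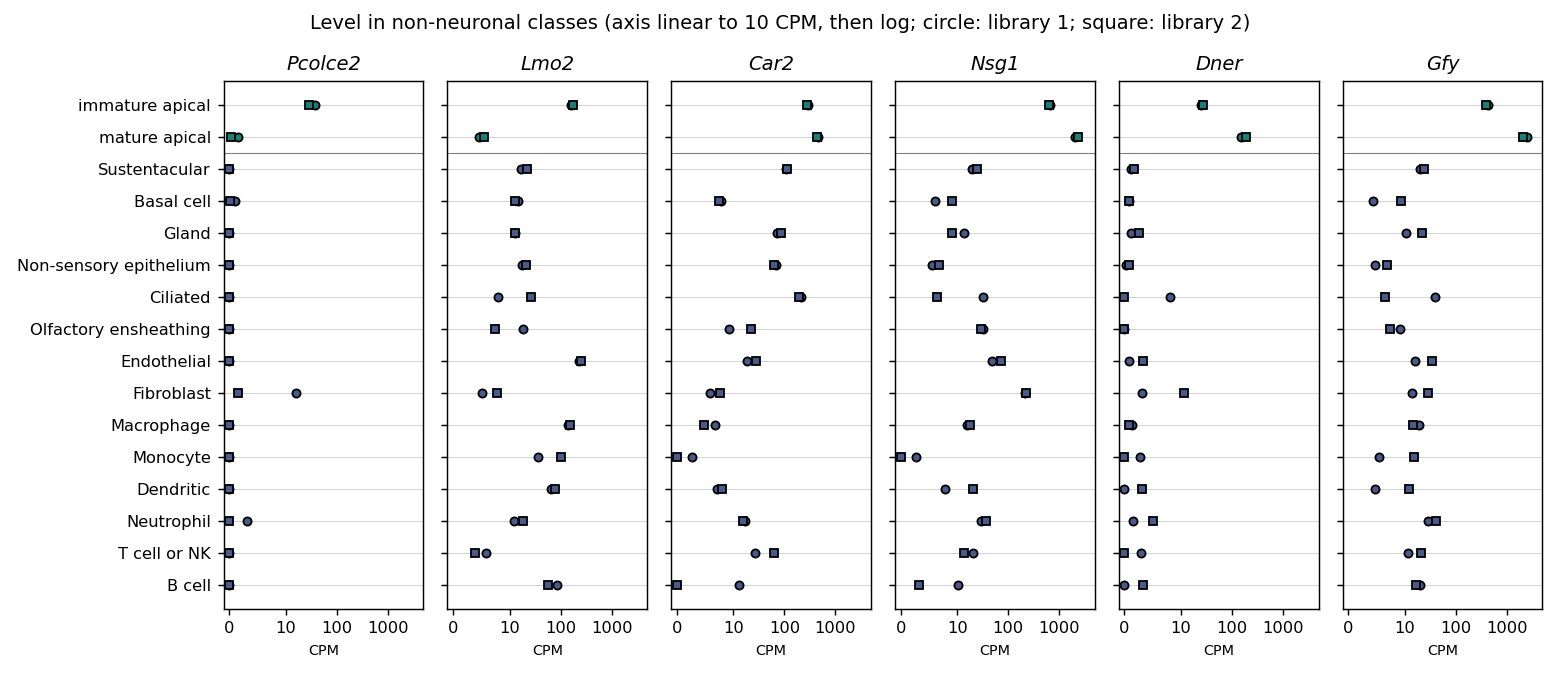
Level of each gene in CPM (horizontal axis, linear to 10 and logarithmic above) in immature and mature apical neurons (teal, above the line) and in 14 non-neuronal classes (blue), with circles for library 1 and squares for library 2. *Lmo2* has points above immature apical neurons in endothelial-like cells, and *Dner* and *Gfy* have none near their neuronal levels.

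Among mature apical neurons *Nsg1* and *Gfy* were the most even from cell to cell, given here as UMIs per 10000 UMIs of a cell. They were also the members with the most UMIs, and the spread was not corrected for counting error, which is relatively smaller at higher counts. The quartiles of *Nsg1* were 16.5, 21.0 and 26.7, and those of *Gfy* 17.6, 21.5 and 27.6. *Car2* had quartiles of 2.59, 4.25 and 6.00 and *Dner* of 0.667, 1.44 and 2.59. All 568 cells held UMIs of *Nsg1* and *Gfy*, and 451 of them also held UMIs of both *Car2* and *Dner*. When each cell was thinned to 4000 UMIs, the share with a *Dner* UMI went from 80.8% to 47.3%, and that with *Car2* from 97.9% to 81.5%, while *Nsg1* and *Gfy* stayed at 99.8% and 100%.

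The 4 genes were present in neurons of every V1R that could be followed. In 494 of the 568 mature apical cells 1 V1R gene led, and 13 receptors led in at least 10 cells each, 182 cells in all. The 13 lie on chromosomes 6, 7 and 17. Reads may be shared between related receptors, which was not tested, so the leading gene of a cell is uncertain. Across the 13, *Gfy* ran from 1768 to 2679 CPM, *Nsg1* from 1186 CPM in *Vmn1r38* cells to 3049 CPM in *Vmn1r90* cells, *Car2* from 250.6 CPM in *Vmn1r85* cells to 667.5 CPM in *Vmn1r37* cells, and *Dner* from 93.3 to 274 CPM. In *Vmn1r37* cells *Car2* was 591 CPM in library 1 and 787 CPM in library 2, and in *Vmn1r85* cells 173 and 319 CPM. These 2 receptors were taken as the highest and lowest of the 13, so the gap between them is a description only. For *Dner*, cells of *Vmn1r89* had 139 and 375 CPM, a wider gap between libraries than most receptors showed from one another. *Pcolce2* and *Lmo2* stayed at or below 6.24 and 13.6 CPM.

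**Figure D5:**
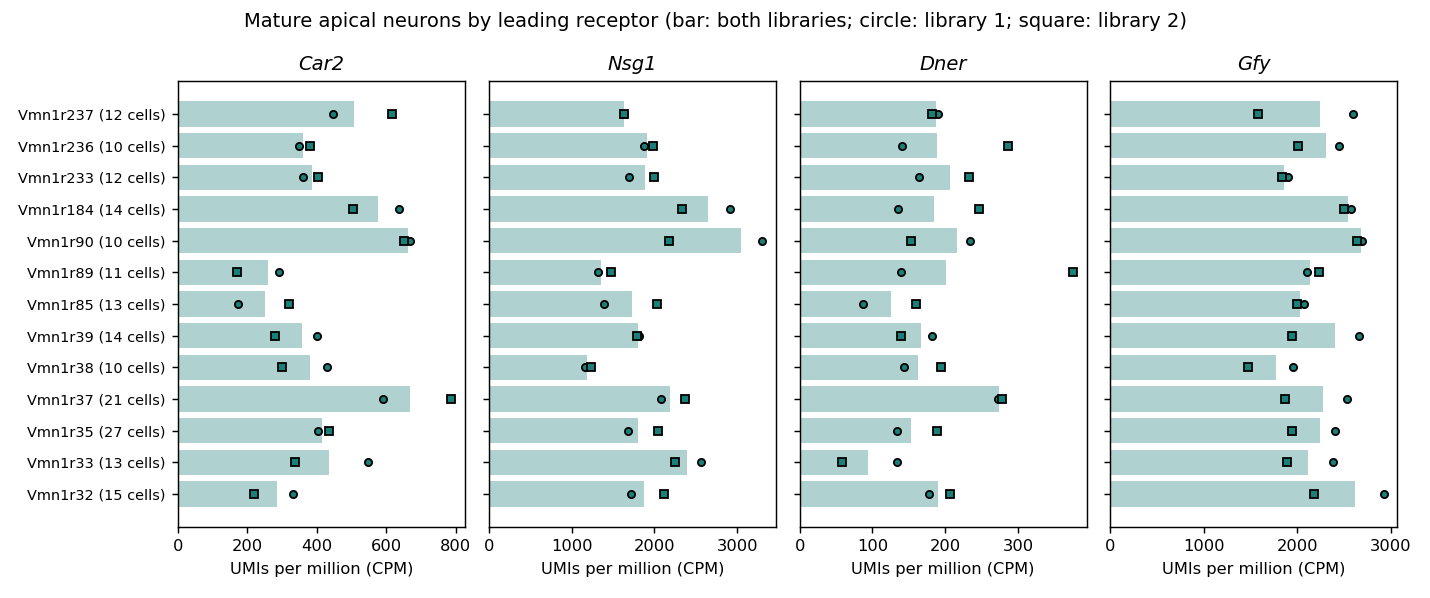
Level of *Car2*, *Nsg1*, *Dner* and *Gfy* in CPM (horizontal axis, from 0) in mature apical neurons grouped by their leading V1R gene, with bars for both libraries together, circles for library 1 and squares for library 2. *Gfy* varies least across the 13 receptors, between 1768 and 2679 CPM.

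In immature apical cells the early members were found together about as often as their separate shares give. *Pcolce2* and *Lmo2* were both seen in 45 of 312 cells, 14.4%, where the product of their shares was 11.8%. *Lmo2* and *Car2* were both seen in 132 cells, 42.3%, where the product was 39.5%, and *Lmo2* and *Dner* in 23 cells, 7.37%, where it was 9.38%. Depth differs between cells and moves such shares, so they are a description.

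Over 36 sums of 18 classes and groups in 2 libraries, the courses of the 6 genes were not one. Pearson's r of log2(CPM + 1) was 0.88 between *Dner* and *Gfy*, 0.85 between *Nsg1* and *Dner* and 0.80 between *Nsg1* and *Gfy*, but 0.13 between *Pcolce2* and *Lmo2*, and *Lmo2* had values between -0.29 and -0.15 with the other 4. Sums share libraries and differ in depth, so r is given as a description. Among 6167 genes of at least 20 CPM, the genes most alike to *Gfy* were the calcium-binding protein gene *S100z*, the G protein subunit gene *Gng8* and *Spock1*, with r of 0.963, 0.963 and 0.962. Those most alike to *Nsg1* were *Ank2*, *Podxl2* and *Eid1*, with r of 0.915, 0.902 and 0.890. For *Dner* they were *Gfy*, *Gm16579* and *Aplp1*, with r of 0.875, 0.874 and 0.874, and for *Car2* they were *Macrod1*, *Bspry* and *Jade1*, with r of 0.812, 0.802 and 0.776. *Lmo2* was led by *Ralb*, *Prcp* and *Plekho1*, with r of 0.710, 0.659 and 0.643. *Pcolce2* had *Bfsp2*, *Tex15* and *Crabp1*, with r of 0.607, 0.605 and 0.600, and these were also at their highest in immature apical neurons among the neuronal groups, at 935, 853 and 2431 CPM.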

How the data were processed

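Droplet-based 3′ libraries (10x Genomics 3′ v3.1 chemistry) were prepared from whole VNO. The authors deposited counts of UMIs per gene and barcode; per the file headers these came from Cell Ranger 4.0.0, and the submitters' processing notes name bcl2fastq, Seurat 3.2.3 and mm10. The counts are raw, so intervals and limits at 0 UMIs cover counting error only.

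Of 24084 barcodes, the 10592 that had 200 to 9000 genes and no more than 5% of UMIs from mitochondrial genes were kept, with genes seen in at least 3 barcodes. Scrublet called 113 and 90 doublets, which stayed in. Cells were clustered with Seurat 5.3.0 (resolution 0.8) into 32 clusters, and 28 were named by at least 3 raised markers. Rebuilt names may differ from those of the study. UMIs were summed per group and library, scaled to CPM, and the 14040 genes whose 10 sums together reached 10 UMIs were tested with edgeR 4.0.16 (TMM, quasi-likelihood, Benjamini-Hochberg, threshold 0.05). DESeq2 1.42.0, other gates, filters and a library block were alternatives. Ratios between branches carry exact 95% counting intervals, and shares of cells exact Clopper-Pearson intervals. On simulated data the test recovered 42%, 78%, 94% and 98% of genes changed by a log2 of 1, 2, 3 and 4 between the apical stages. Against precursors it recovered 30% at a log2 of 1. False calls made up 3.70% of calls between the apical stages, and ran from 1.33% between basal stages to 9.26% against precursors.

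The library number marks a shared capture, so it pairs the sums, and the correlations of same-numbered deviations were between 0.0264 and 0.0852. The main fit held no library term, and the calls of the pathway lists were not repeated with one. Coordinates are those of GENCODE vM21, which matched 32158 of 32285 genes. The 6 genes, the pathway lists, the marker lists and the 5 steps were chosen with earlier results of these data known, and the naming details of clusters were set after the data had been seen. Genes of the lists are named from those called in the branch and apical stage comparisons, of which 1 is not reported here, and *Pcolce*, *Serpinh1* and *Nsg2* in basal neurons were named after their values were seen.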

Additional observations from a re-analysis of the deposited data

Results flagged for a closer look

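*Nsg1* moved in opposite directions in the branches from the immature to the mature stage. On the scale of log2(CPM + 1) it rose by 1.67 and 1.86 in apical neurons of libraries 1 and 2 and changed by -2.26 and -2.51 in basal neurons. It stands out because both libraries moved one way in one branch and the other way in the other. The difference was not tested, since the branch contrast chose the gene.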

How the results depend on the processing

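Under an alternative, a tested value counted as the same if it kept its direction and side of the threshold. A value without a test counted as the same within 1 SE of the main value. Of 323 such values of the 6 genes between stages or against precursors, 307 were the same, 12 without a test moved and 3 changed sign. These 3 were the difference of *Dner* against precursors, 0.36 and not called, which was -0.18 with a stage ratio of 2 and ran from -0.061 to 1.29 when a library or 1 sum was left out (-0.025 without the precursors of library 2). It passed the test under no alternative that had one, and the cause was not tested. The remaining 1 lost its call, *Pcolce2* against precursors without precursor replicate 1 (log2 8.60, edgeR adjusted p = 0.0538; range over its alternatives 5.52e-07 to 0.0538). Of 221 branch values, 181 moved by less than the spread and 40 moved by more. The number of genes called was less stable. Between immature branches 408 genes were called, but 864 with no filter on low counts, 745 with the replicate block, and 156 to 260 when 1 sum was left out. Between mature branches 1070 were called, but 1662 with no filter, 1805 with the replicate block, and 604 to 663 when 1 sum was left out; DESeq2 called 814, of which 271 were higher in apical neurons, against 574 of the 1070. Leaving out 1 sum gave 3033 to 3413 of 4583 calls between apical stages (3033 without mature apical replicate 1), 2052 to 2410 of 3041 between basal stages, and 1071 to 1765 of 2325 against precursors (1071 without precursor replicate 1). The replicate block changed no call of the 6 genes. Leaving 1 sum out and dropping TMM factors were chosen after seeing the data; the latter shifted the median of all genes between apical stages by -0.12. With a mitochondrial limit of 10%, 3 members (*Pcolce2*, *Lmo2*, *Car2*) in place of 1 had a non-neuronal class above immature apical neurons; *Car2* reached 382 and 436 CPM in 223 non-sensory epithelium-like cells. The cause was not tested. With 2 libraries and 1 to 12 UMIs behind *Pcolce2* and *Dner* in immature basal neurons, depth limits those ratios.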
